A study of Glycine max with 4 samples.

Results

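Binding sites of the soybean protein GLYMA.13G317000 that lie close to exactly 1 other site are described here as lone pairs. A lone pair was defined as neighbouring sites 500 to 1000 bp apart, with no further site within 2000 bp of either. Sites were regions bound in both replicates on the 20 chromosomes, obtained by merging overlapping peaks of both lists. The position of a site was the summit of its widest replicate 1 peak. By this rule 881 pairs were found, which held 1762 of 28745 shared sites (6.13%). Another 21799 sites (75.8%) had no other site within 2000 bp and are called isolated sites. The remaining 5184 sites had a neighbour within 2000 bp without belonging to such a pair. Of 1233 cases of neighbouring sites 500 to 1000 bp apart, 352 had a further site within 2000 bp and were not counted.

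The sites were mapped by chromatin immunoprecipitation and sequencing (ChIP-seq), in which protein is crosslinked to DNA, chromatin is sheared and the fragments held by an antibody are sequenced. The series holds 2 ChIP libraries and 2 input libraries, numbered as biological replicates 1 and 2, all made from early maturation embryos taken out of seeds 6 to 7 mm long. The plants were of the cultivar Williams 82, and the labels name no treatment and no altered gene. A peptide from GLYMA.13G317000 was the antigen for the antibody. Chromatin was sheared to fragments of 100 to 500 bp, so fragments from a pair of close sites can come near each other. Per peak, the deposited fold is the ratio of ChIP signal at the summit to local background, and it is the authors' own value. The fold is called strength below. There was 1 condition and no processed input file was used, so no test between groups of libraries could be made; values are descriptions, given for each replicate, and sites are not replicates. Whole embryos were used, so whether both sites of a pair are bound in the same cell cannot be told.

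The peak names carry BZIP67, which stands for a transcription factor with a basic leucine zipper. That this is the protein of the labels was assumed. Proteins of that class bind DNA as dimers, commonly at short sequences with an ACGT core. In seeds of other plants such as Arabidopsis, factors of this class act with other seed regulators on genes of storage protein and oil accumulation. Regulatory regions of genes often hold several binding sites of the same factor close together, and sites close to each other may or may not be bound equally strongly. The sequences under the pairs and the genes beside them were not analysed here, since no genome or gene coordinates of the files' build were used.

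The first question was how the paired sites are spaced. Spacing covered the whole permitted range with no preferred distance apparent, with a median of 781 bp and quartiles of 657 and 892 bp. There were 125 pairs between 500 and 600 bp, 160 between 600 and 700 bp, 195 between 700 and 800 bp, 195 between 800 and 900 bp and 206 between 900 and 1000 bp. The fewest pairs were thus in the closest class. Adjacent peaks are the most easily merged into a single region there, and the part of merging in this count was not tested. The stretch without a peak between the edges of the merged regions had a median of 334 bp, from 4 to 792 bp. Spacing was nearly the same when read from replicate 2 summits, which the rule did not use: the median was again 781 bp, and the spacings of a pair differed by a median of 35 bp. The difference was within 50 bp in 568 pairs (64.5%) and above 200 bp in 25. In replicate 2, 798 of the 881 pairs were still spaced 500 to 1000 bp apart, 26 were closer and 57 were farther apart. The Pearson correlation of spacing between replicates over the 881 pairs was 0.863, within a range that the rule had fixed for replicate 1.

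**Figure D1:**
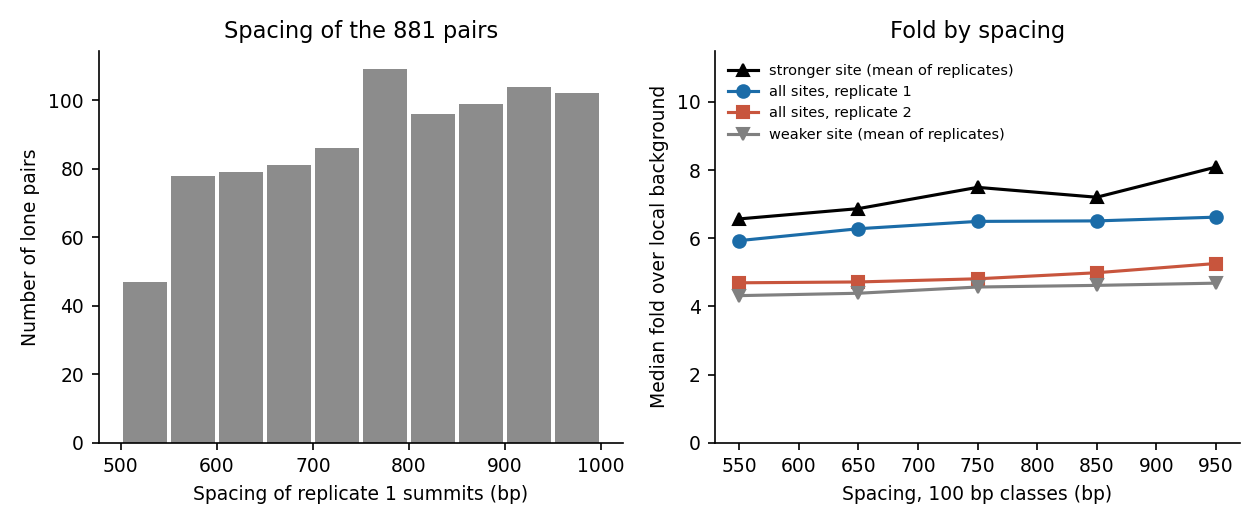
Left, number of lone pairs (y axis) by spacing of the replicate 1 summits in classes of 50 bp (x axis, bp). Right, median fold over local background (y axis) by spacing in classes of 100 bp, for all paired sites in replicate 1 (circles) and replicate 2 (squares) and for the stronger and weaker site of each pair by mean fold (triangles). Counts go from 47 pairs in the closest class to 109 between 750 and 800 bp, and the median replicate 1 fold goes from 5.93 to 6.62.

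The rule cuts a continuous range of distances, and values on either side of its limits are given as a description. The 8 pairs spaced 500 to 509 bp had a median fold of 5.39, against 4.92 for 8 pairs spaced 490 to 499 bp. The 19 pairs spaced 991 to 1000 bp had 5.89, against 4.92 for 18 pairs spaced 1001 to 1010 bp. The closest pair inside the rule, on chromosome 13, had summits at 38657051 and 38657551, exactly 500 bp apart. Its sites had folds of 9.54 and 8.65 in replicate 1 and of 5.57 and 8.96 in replicate 2, so the order of the sites differed between the replicates. Just outside, a pair 499 bp apart on chromosome 14, with summits at 45141043 and 45141542, had folds of 4.00 and 3.53 in replicate 1 and of 3.19 and 3.37 in replicate 2. At the upper limit, a pair on chromosome 3 spaced 1000 bp apart, at 34604066 and 34605066, had folds of 9.01 and 6.68 in replicate 1 and of 5.59 and 4.42 in replicate 2. A pair 1001 bp apart on chromosome 7, at 3599737 and 3600738, had folds of 4.03 and 3.51 and of 3.62 and 4.18. As to isolation, the pair on chromosome 2 at 6968030 and 6968859 had its next site 2007 bp away. A pair on chromosome 8 at 2482659 and 2483580 was left out, since its next site lay 1998 bp away.

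Paired sites were bound about as strongly as isolated ones. In replicate 1, the median fold was 6.42 at paired sites (quartiles 4.70 and 8.92) and 6.51 at isolated sites (4.82 and 9.40). In replicate 2, it was 4.88 (3.86 and 6.91) and 5.01 (3.87 and 7.33). The medians of paired sites were 0.987 and 0.974 times those of isolated sites. The median number of fragments over the summit (pileup) was 71 at paired and 72 at isolated sites in replicate 1, and 43 and 45 in replicate 2. Local background had the same median in both kinds of site, 10.1 fragments in replicate 1 and 7.81 in replicate 2. The change from replicate 1 to replicate 2 was also alike, with a median fold ratio of 0.806 at both kinds of site. Paired sites were somewhat narrower, with median peak widths of 409 bp against 421 bp in replicate 1 and of 328.5 bp against 335 bp in replicate 2. A wide peak is more easily merged with a close neighbour, and stronger peaks were wider; the part of merging in these values was not tested.

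Of the paired sites, 394 of 1762 (22.4%, Wilson 95% interval 20.5 to 24.4%) had a mean fold of both replicates of at least 8.34, a limit that 25.0% of all shared sites reach. A mean fold of at least 12.0, reached by 10.0% of all shared sites, was found at 141 paired sites (8.00%, 6.82 to 9.36%). Of the weakest 25.0% of all shared sites, with mean folds up to 4.40, the pairs held 468 (26.6% of paired sites, 24.6 to 28.7%). The strongest sites were thus somewhat rarer in pairs than among all shared sites. Wilson intervals cover counting error only. Both sites of a pair were among the strongest 25.0% in 51 pairs and among the strongest 10.0% in 7. The product of the shares of left and right sites gave 43.9 and 5.52 pairs. Both sites were among the weakest 25.0% in 60 pairs, where the product gave 62.2. A site of the strongest 25.0% was joined to one of the weakest 25.0% in 114 pairs, where the product gave 105.

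The main comparison asked whether the sites of a pair resemble each other in strength. The strength of a site said almost nothing of that of its partner. The Spearman correlation of log2 fold between the site of lower and the site of higher coordinate was -0.02 in replicate 1 and -0.03 in replicate 2 over 881 pairs, and -0.04 for the mean of both replicates. The Pearson correlations were -0.017, -0.020 and -0.025. The sites of a pair share the library, and the points are pairs and not replicates. Their local backgrounds were only weakly correlated (Spearman 0.117 in replicate 1 and 0.126 in replicate 2). For 19052 pairs of neighbouring isolated sites, all over 2000 bp apart, the Spearman correlation of the mean was 0.01. By distance it was -0.01 at 2000 to 3000 bp (1366 pairs), 0.04 at 3000 to 5000 bp (2050), 0.02 at 5000 to 10000 bp (3551), 0.01 at 10000 to 50000 bp (9129) and 0.01 beyond 50000 bp (2956). By spacing within the pairs it lay between -0.08, at 700 to 800 bp, and 0.01, at 900 to 1000 bp. Within single chromosomes, which held 27 to 73 pairs each, it was below 0 on 11 and ranged from -0.34 to 0.17.

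**Figure D2:**
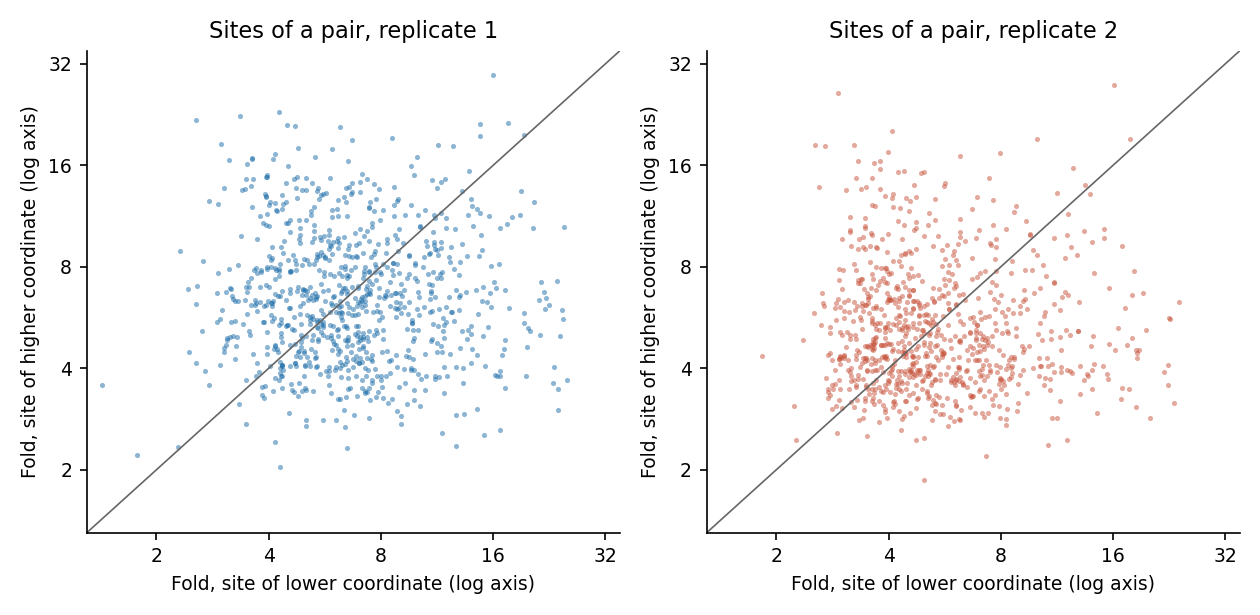
Fold over local background of the site of higher coordinate (y axis, log scale) against that of the site of lower coordinate (x axis, log scale) in replicate 1 (left) and replicate 2 (right). Each point is 1 of 881 lone pairs and the line marks equal folds; the points form a cloud without slope, with Spearman correlations of -0.02 and -0.03.

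The size of the difference gave the same picture. The stronger site of a pair had a median of 1.54 times the fold of the weaker in replicate 1 and 1.48 times in replicate 2, which are absolute log2 differences of 0.63 and 0.56. Neighbouring isolated sites differed by 0.66 and 0.60. To compare with pairs joined at random, all 1551441 possible pairs of the 1762 paired sites were formed, with no drawing of samples. Their median absolute log2 difference was 0.64 in replicate 1 and 0.57 in replicate 2, against 0.63 and 0.56 for the true pairs. For all possible pairs of isolated sites it was 0.66 and 0.61. The true pairs thus differed by 0.02 and 0.01 less than all possible pairs of the same sites in replicates 1 and 2. These gaps are small beside the differences themselves, and whether they exceed the spread between libraries was not tested. For the mean of both replicates the values were 0.57 in true pairs, 0.58 in all possible pairs of the same sites and 0.60 in neighbouring isolated sites.

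**Figure D3:**
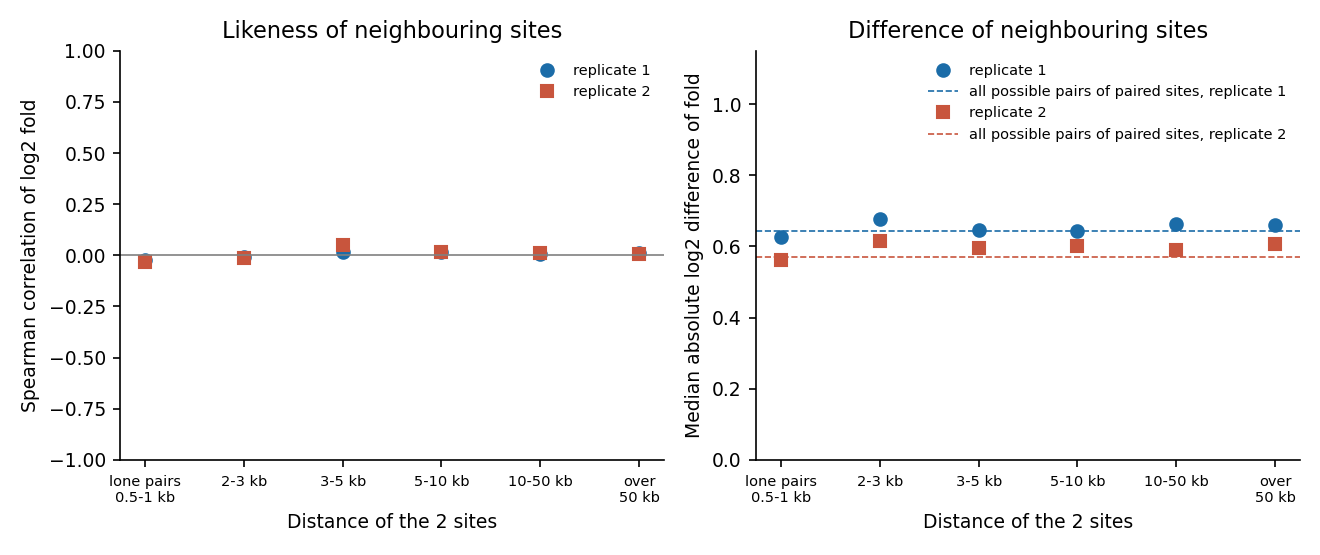
Spearman correlation of log2 fold (left, y axis) and median absolute log2 difference of fold (right, y axis) between neighbouring sites by their distance (x axis), for lone pairs and for neighbouring isolated sites in 5 classes, in replicate 1 (circles) and replicate 2 (squares). Dashed lines give the median difference over all possible pairs of the paired sites, 0.64 and 0.57; the lone pairs lie at 0.63 and 0.56 and all correlations lie near 0.

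Although sites of a pair were unlike each other, the difference was repeatable. The same site was the stronger in both replicates in 709 of 881 pairs (80.5%, Wilson 95% interval 77.7 to 83.0%). The other site was the stronger in replicate 2 in 170 pairs, and the folds were equal in replicate 2 in 2. The log2 ratio of the sites was correlated between the replicates with a Spearman value of 0.840 and a Pearson value of 0.865 over the 881 pairs. Neighbouring isolated sites gave 82.0% (81.4 to 82.5%) and correlations of 0.841 and 0.858, so these values were not particular to close pairs.

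**Figure D4:**
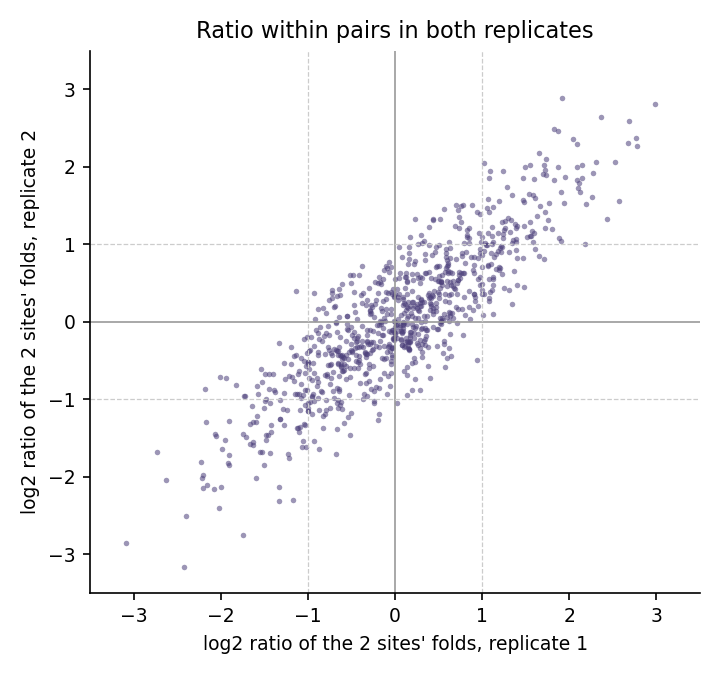
Log2 ratio of the fold of the site of lower coordinate to that of the site of higher coordinate in replicate 2 (y axis) against replicate 1 (x axis). Each point is 1 of 881 lone pairs and dashed lines mark a ratio of 2; 165 pairs lie beyond 2 in the same direction in both replicates and 0 in opposite directions.

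How often the order recurred depended on the ratio. Where the sites differed by less than 1.19 times in replicate 1, the same site was stronger in replicate 2 in 100 of 193 pairs (51.8%, 44.8 to 58.8%). From 1.19 to 1.41 times it was 116 of 161 pairs (72.0%), from 1.41 to 2 times 236 of 269 (87.7%), and from 2 times upward 257 of 258 (99.6%, 97.8 to 99.9%). All 40 pairs that differed by 4 times or more in replicate 1 kept their order in replicate 2. Pairs sorted by replicate 2 and read in replicate 1 gave 58.2%, 69.4%, 89.0% and 99.6% for the same classes. Neighbouring isolated sites sorted by replicate 1 gave 59.6%, 71.4%, 86.6% and 98.6%, so a rise with the ratio was not particular to close pairs. Ratios were smaller in the replicate that had not been used for sorting: the 258 pairs at 2 times or more had a median ratio of 2.65 in replicate 1 and 2.32 in replicate 2. In the other direction, 232 pairs had 2.58 in replicate 2 and 2.53 in replicate 1. Pairs whose order differed or was equal had median ratios of only 1.17 and 1.19 in the replicates, and a lower median fold, 5.04 against 5.84.

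Sites 2 times or more apart in the same direction in both replicates were found in 165 of 881 pairs (18.7%, 16.3 to 21.4%). Among neighbouring isolated sites, the share was 20.1% (19.5 to 20.7%). No pair was 2 times or more apart in opposite directions in the replicates. Of the 709 pairs with a constant order, the site of lower coordinate was the stronger in 371 and the site of higher coordinate in 338, which is 52.3% for the lower (48.6 to 56.0%). For neighbouring isolated sites this was 50.1%.

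Pileups differed more between the sites of a pair than local backgrounds did. Within pairs, pileups differed by a median of 1.53 times in replicate 1 and 1.46 times in replicate 2, while local backgrounds differed by 1.13 and 1.12 times. Neighbouring isolated sites gave 1.57 and 1.53 times for pileups and 1.147 and 1.129 times for backgrounds, so this was not particular to close pairs. Background also varied little among paired sites, with replicate 1 quartiles of 9.20 and 11.3 fragments, against 53 and 102 for pileup. Its part in the difference of fold was not tested. Backgrounds of the sites of a pair had Spearman correlations of 0.117 and 0.126, above those of neighbouring isolated sites, 0.022 and 0.017, and pileups had -0.030 and -0.032. When the stronger site was picked in replicate 1, it had a median pileup of 56 fragments in replicate 2, against 36 at its partner. It had the higher pileup in 732 pairs and the lower in 131. Its peak was also wider in replicate 2, with a median of 381 bp against 282 bp, and was the wider in 656 pairs. Background there was 7.86 fragments at the stronger and 7.81 at the weaker site. Picked in replicate 2 and read in replicate 1, the stronger sites had 91 fragments against 58, and widths of 456 bp against 364 bp.

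Strength went up slightly with spacing. The median fold of paired sites was 5.93 in replicate 1 and 4.69 in replicate 2 for pairs spaced 500 to 600 bp, and 6.62 and 5.26 for pairs spaced 900 to 1000 bp, with the other classes between these values. Median widths went along with this, from 385.5 to 434.5 bp in replicate 1 and from 303 to 349 bp in replicate 2. The same order was seen for the stronger site of the pair, with median mean folds of 6.57 in the closest and 8.09 in the widest class, but the class of 800 to 900 bp, with 7.20, lay below that of 700 to 800 bp, with 7.49. For the weaker site the medians were 4.32 and 4.68. Strong and wide peaks close together are merged under the rule, and the part of this in the trend was not tested.

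The shape of the peaks toward and away from the partner was compared next. The arm of a peak from summit to edge had a median of 191 bp toward the partner and 198 bp away from it in replicate 1. The arm away was the longer at 974 of 1762 paired sites (55.3%) and the arm toward the partner at 777 (44.1%). In replicate 2 the medians were 163 bp on both sides, and the arm away was the longer at 883 sites and the other at 873. At isolated sites, the right arm was the longer at 50.5% in replicate 1. The site position is a replicate 1 summit, so the rule used the replicate 1 summits from which these arms are measured; its part in the asymmetry was not tested.

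The stretch between the sites of a pair held almost no peak of a single replicate, but it was short. The gap between the merged regions had a median of 334 bp, while peaks at paired sites were at least 204 bp wide in replicate 1 and 199 bp in replicate 2. Room for a further peak was thus small, and the shares between sites cannot be compared with those of 2000 bp windows. A peak of replicate 1 alone was found between the sites of 1 of 881 pairs, and a peak of replicate 2 alone in 0, which allows a share of up to 0.434% (Wilson 95% upper limit). In the 2000 bp on the outer side of each paired site, a replicate 1 peak without a partner was found at 185 of 1762 places (10.5%, 9.15 to 12.0%). On the sides of isolated sites it was 9.22% (8.95 to 9.49%). In all, 171 pairs (19.4%) had such a replicate 1 peak nearby, so being alone holds for sites of both replicates and not for every peak. The nearest other site lay a median of 6960 bp from a pair and 7844 bp from an isolated site.

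The strongest pairs were named by the mean fold of both sites in both replicates. The 10 strongest lay on 6 chromosomes, and in all 10 the same site was the stronger in both replicates. In 4 of them the sites were 2 times or more apart in both replicates. Over all 881 pairs, the same site was the stronger in 80.5%, and 18.7% were 2 times or more apart in both replicates. The 10 were chosen by the folds that also set the ratio, so their counts are a description of the list. The first, on chromosome 13, held regions from 31604717 to 31605243 and from 31605604 to 31606240, with summits 851 bp apart. Its left site had folds of 16.0 and 16.1 in replicates 1 and 2 (mean 16.1 ± 0.0636, SD, n = 2). Its right site had 29.6 and 27.6 (28.6 ± 1.37), the highest mean of any paired site. The pileups were 171 fragments (exact Poisson 95% interval 146 to 199) and 133 (111 to 158) at the left site, and 299 (266 to 335) and 228 (199 to 260) at the right site. The intervals of the sites did not overlap in either replicate.

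The second pair, on chromosome 8, had sites of more similar strength than the first. Its regions ran from 1228136 to 1228746 and from 1228824 to 1229590, only 77 bp apart, with summits 589 bp apart. The left site had folds of 17.5 and 17.7 in replicates 1 and 2, and the right site had 21.4 and 19.1. The ratio of 1.22 in replicate 1 fell to 1.08 in replicate 2. Its pileups were 184 and 224 fragments in replicate 1, with exact Poisson intervals of 158 to 213 and 196 to 255 that overlapped.

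The third, on chromosome 11 with regions from 26947401 to 26947921 and from 26948260 to 26948778, was uneven. The left site had folds of 24.8 and 24.1, and the right site had 10.5 and 6.28. The left site was thus stronger by 2.36 times in replicate 1 and 3.84 times in replicate 2. On chromosome 12, with regions from 39562545 to 39563107 and from 39563340 to 39563895, the left site had 14.7 and 9.99 and the right site 21.2 and 19.2. A pair on chromosome 5, with regions from 4956704 to 4957190 and from 4957545 to 4958108, had folds of 19.4 and 19.7 in replicate 1 and of 11.4 and 13.2 in replicate 2. Both of its sites were lower in replicate 2, with SDs of 5.70 and 4.63, while the ratio of the sites was 1.02 in replicate 1 and 1.16 in replicate 2.

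The other 5 of the 10 included a further pair on chromosome 11, with summits at 2102076 and 2103061. Its folds were 14.7 and 19.6 in replicate 1 and 12.5 and 15.7 in replicate 2. A pair on chromosome 17 at 11836894 and 11837713 had 23.8 and 7.26 in replicate 1 and 22.7 and 5.60 in replicate 2. The third pair on chromosome 11 among the 10, at 29989067 and 29990032, had 20.6 and 12.4 in replicate 1 and 15.2 and 9.71 in replicate 2. The ratios of these 3 pairs ranged from 1.26 to 4.05, and the order of the sites was kept in each.

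A pair on chromosome 5 at 40333580 and 40334542 joined a weak site, with folds of 4.27 and 2.92, to one of 23.0 and 26.1. On chromosome 8, the pair at 7368847 and 7369637 had 22.1 and 22.6 at the left site and 6.01 and 5.64 at the right site. In both, the strong site alone brought the pair among the 10.

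**Figure D5:**
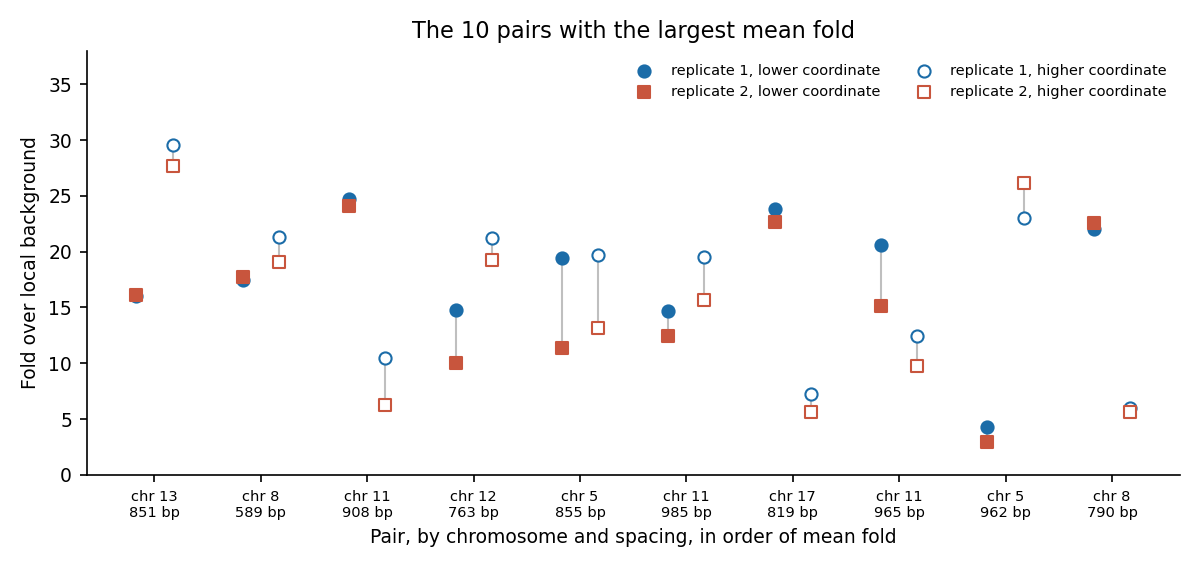
Fold over local background (y axis) of the sites of the 10 lone pairs with the largest mean fold, labelled by chromosome and spacing (x axis). Circles are replicate 1 and squares replicate 2, filled for the site of lower and open for the site of higher coordinate. In 4 pairs the sites are 2 times or more apart in both replicates (18.7% of all 881 pairs). In all 10 the order is kept (80.5% of all 881 pairs).

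The most uneven pairs were chosen by the ratio of the sites among pairs with a constant order, so their ratios are a description of the extremes. On chromosome 18, the regions from 5487224 to 5487496 and from 5487887 to 5488659 had folds of 2.55 and 2.54 at the left site and of 21.8 and 18.4 at the right site. The right site was the stronger by 8.54 times in replicate 1 and 7.23 times in replicate 2. On chromosome 4, the summits at 48433123 and 48433861 had folds of 23.9 and 20.1 at the left site and of 3.02 and 2.86 at the right site, ratios of 7.93 and 7.05. The weak site there rested on 34 and 27 fragments, against 247 and 173 at its partner.

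The pair on chromosome 5 at 40333580, given above, was the third of these, with ratios of 5.39 and 8.95. The remaining ones lay on chromosome 2 at 47970649 and 47971614, with ratios of 6.42 and 6.02, and on chromosome 3 at 45167876 and 45168719, with 6.83 and 5.18. In all 5, the weak site had a mean fold between 2.55 and 3.60, below the limit of 4.40 for the weakest 25.0% of shared sites.

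The most even pairs were sought among the stronger pairs, those with a mean fold of at least 7.93, the upper quartile of all pairs. On chromosome 9, the sites at 41317845 and 41318570 had folds of 11.1 and 11.1 in replicate 1 and of 7.75 and 7.80 in replicate 2. Another pair on chromosome 9, at 34955679 and 34956448, had 11.6 and 11.6 in replicate 1 and 9.59 and 10.0 in replicate 2. The other 3 lay on chromosome 19 at 39937793, on chromosome 11 at 3892932 and on chromosome 1 at 716657. Their ratios were between 1.01 and 1.13 in either replicate. In each of these 5 pairs, the sites differed from each other less than each site differed between the replicates. The pairs were chosen for a small ratio, and folds were lower in replicate 2 at paired sites in general (median ratio 0.806). That comparison is therefore a description of the choice.

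Lone pairs occurred on every chromosome, in a share of the sites that differed between chromosomes. They numbered from 27 on chromosome 20 to 73 on chromosome 13, the chromosome with the most sites. The share of a chromosome's sites in lone pairs was lowest on chromosome 15, at 4.17% (Wilson 95% interval 3.22 to 5.38%), and highest on chromosome 4, at 7.96% (6.65 to 9.51%). On chromosome 13 it was 7.02% (6.00 to 8.20%). Chromosomes dense in sites were also dense in pairs, with a Spearman correlation of 0.814 between pairs per Mb and sites per Mb (20 chromosomes, with paired sites counted in both measures). The outer quintiles of the chromosomes held 626 pairs (71.1%, 68.0 to 74.0%), against 67.2% of isolated sites (66.6 to 67.9%) and 68.4% of all shared sites. The median fold was 5.52 at pairs in the outer quintiles and 5.81 at the 255 pairs between them, and median spacings were 778.5 and 783 bp.

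Some lone pairs lay within 10000 bp of each other. Neighbouring lone pairs on a chromosome were a median of 404420 bp apart, and 15 were less than 10000 bp apart. The rule bars a further site within 2000 bp of a pair, and whether 15 is more or fewer than an even spread would give was not tested. The closest lay on chromosome 4, 3270 bp from each other. The first of these ran from 854455 to 855664 with folds of 11.6 and 9.12 in replicate 1 and of 12.1 and 6.60 in replicate 2. The second ran from 858412 to 859652 with 9.65 and 4.01 in replicate 1 and 8.29 and 3.35 in replicate 2. In both pairs the left site was the stronger in each replicate. Neighbouring pairs were looked at only once the values were known.

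In 4 pairs at least 1 site had a local background above 30 fragments. On chromosome 2, the sites at 40920428 and 40921124 had 213 and 149 fragments in replicate 1 but folds of 2.28 and 2.34. On chromosome 16, the sites at 6446545 and 6447187 had 245 and 202 fragments and folds of 1.77 and 2.21. In both pairs, each site had a low fold at a high pileup. The others lay on chromosome 5 at 14965974, where the lowest fold of any paired site was found, 1.43 in replicate 1, and on chromosome 2 at 48520393. Without peaks of such background, the rule gave 880 pairs, with a Spearman correlation within pairs of -0.05.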

How the data were processed

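ChIP-seq peak lists of 2 ChIP libraries were analysed; processed input files were not used. The submitters' processing notes name Bowtie 0.12.7 and MACS2; for settings, genome build and library depth, the sources used here give nothing. Peaks had been called by the authors in each replicate, and the peak names carry a q of 0.01. The deposited fold is a ratio of ChIP pileup to local background in each replicate. Whether that background came from the ChIP or the input library is not stated. Each summit also has a deposited −log10 p and −log10 q, and the deposited score is a multiple of the latter. Replicate 1 had 47284 peaks and replicate 2 had 30289. Pileup and background were solved for each summit as the values that yield its deposited −log10 p (Poisson) and fold (pseudocount 1); a whole number met 100% of peaks within 0.001. Paired summits had pileups of 26 to 299 (replicate 1) and 21 to 243 (replicate 2) fragments.

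Peaks overlapping by at least 1 bp were merged, and the widest peak of each list stood for a region. Positions are 1-based, in the files' build. The gene table at hand (assembly 4.0) ends over 100 kb before the last peak on 4 chromosomes, so its coordinates were not used. Named pairs were the 10 with the largest mean fold, the 5 most uneven, the 5 most even of the stronger pairs and those at the limits. Shares have Wilson and pileups exact Poisson 95% intervals, for counting error only. The rule, members and comparisons were chosen with earlier results of these data known. Members had to be called in both lists, which sets a lower limit on strength. On simulated data, 4851 of 4851 pileups and 300 of 300 planted pairs were recovered, and 0 other sites were reported as lone pairs. The planted peaks were narrower than most real ones and those of a pair could not merge, so loss of pairs by merging was not tested. Simulated backgrounds did not reach the highest in the data. Python 3.11.15, numpy 2.4.6, pandas 2.3.3, scipy 1.17.1 and matplotlib 3.10.9 were used.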

Additional observations from a re-analysis of the deposited data

Results flagged for a closer look

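Outside the 20 chromosomes, the same rule gave 6 lone pairs among 158 shared sites on scaffolds, which the comparisons above did not use. The pair on scaffold 263 had folds of 8.92 and 11.0 in replicate 1 and of 6.19 and 7.71 in replicate 2, and a pair on scaffold 28 spaced 925 bp apart had 10.6 and 5.12 in replicate 1 and 9.12 and 4.74 in replicate 2.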

How the results depend on the processing

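The number of pairs, 881, became 574 with no further site within 5000 bp, 474 with only peaks at a −log10 q of 10 or more, and 1011 to 2089 from the peaks of 1 list alone (tried after seeing the data). The correlation within pairs, -0.037, was small in all 17 alternatives and turned positive only with peaks at a −log10 q of 10 or more (0.058, where neighbouring isolated sites had 0.001). It was -0.066 at replicate 2 summits, -0.044 at region midpoints, -0.045 and -0.017 with no further site within 5000 or 1000 bp, -0.042 with no peak of either list within 2000 bp, -0.031 with peaks at a −log10 q of 5 or more, -0.050 without high-background peaks, -0.042 with pileup minus background, -0.051 with −log10 p, and -0.031 to -0.024 in single replicates. The median log2 difference, 0.568, became 0.440 with peaks at a −log10 q of 10 or more and 0.701 with pileup minus background. With −log10 p it was 1.01, and in single replicates 0.563 to 0.626. It was below that of neighbouring isolated sites in all 17. However, all possible pairs of paired sites also differed less (0.577) than those of isolated sites (0.605). Against all possible pairs of the same sites, true pairs differed less with pileup minus background (0.7007 against 0.7012) and with pileup (0.577 against 0.586). With −log10 p they differed more (1.010 against 1.007). The same stronger site in both replicates, 80.5%, became 85.1% with pileup, 85.9% with pileup minus background and 83.2% with −log10 p. The ratio of median strength of paired to isolated sites, 0.975, became 0.965 with no further site within 5000 bp, 0.990 with no peak of either list within 2000 bp, 0.9498 with peaks at a −log10 q of 10 or more, 0.964 with pileup minus background, 0.957 with −log10 p, and 0.974 to 0.987 in single replicates. The cause of these shifts was not tested. Of the 10 strongest pairs, 6 were again among the 10 strongest by pileup and at least 7 in each other alternative. No paired analysis was possible because the study has 1 condition, so no groups of libraries sharing replicate numbers were compared by a test. Sequencing depth was unknown, so a place without a peak cannot be called unbound.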
